A study of Mus musculus with 5 samples.

Results

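The proteasome is described here through 56 probe sets for 44 of its genes, in 5 mouse cell cultures with 1 Affymetrix expression array each. They are all probe sets whose single gene symbol is Psma, Psmb, Psmc, Psmd, Psme, Psmf or Psmg followed by a number, out of 12488 probe sets on the array. By their letters alone 58 probe sets matched, but Psmc3ip and Psme3ip1 name other proteins and stand apart from all counts below. Of the 56, 54 had a highest intensity above 21.8 and entered the tests, and all 44 genes kept at least 1 probe set. The members left out were dim further probe sets of Psmb4 and Psme1. No probe set carried Psme2 alone or any Psmf symbol.

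Of the cultures, 4 are stable transfectants of AxJ, a mouse plasma cell line. They carry empty vector (1 array), overexpress hnRNP-H, a protein that binds RNA (1 array), or overexpress the related hnRNP-F (subclone B5 and subclone D6, so 2 arrays). The fifth is A20, labelled a memory B cell line (1 array). The AxJ cells were grown with the selection drug G418 and A20 without it, so drug and line cannot be told apart. Per the series' design text, clones with much hnRNP-F or hnRNP-H protein were picked by western blot, and in the hnRNP-F clones less of the heavy chain mRNA was of the secreted form relative to the membrane form. The same text calls hnRNP-H, empty vector and A20 controls, and here empty vector and hnRNP-H together are the AxJ controls. Each transfectant is a selected clone or line of its own, so the clone and the transgene cannot be told apart on the arrays of empty vector and hnRNP-H. The labels do not say whether subclones B5 and D6 come from separate transfections, so for hnRNP-F clone and transgene may be confounded as well.

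The proteasome is the cell's main protease for proteins tagged with ubiquitin. Its core is a barrel of stacked alpha rings (Psma) and beta rings (Psmb), and the beta subunits Psmb5, Psmb6 and Psmb7 carry the active sites. In lymphoid cells, and in others after interferon, Psmb8, Psmb9 and Psmb10 can take the places of Psmb5, Psmb6 and Psmb7, in that order. The resulting immunoproteasome is known for making peptides that MHC class I molecules present. A regulatory particle of ATPases (Psmc) and non-ATPase subunits (Psmd) unfolds the substrate and removes its ubiquitin. Psme proteins are alternative caps, and Psmg proteins help to assemble the core. Plasma cells are known for a heavy load of secretory protein on this machinery.

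Levels below are quantile-normalised intensities, and differences refer to log2(intensity + 6.55). The quantity 6.55 is the 20th percentile of all values, and it understates the change of dim probe sets. Median deposited intensities were 33.9 for A20 and 37.6 to 41.7 for the AxJ arrays. Signal of the Gapdh control probe sets at the 5' end over that at the 3' end falls with degraded RNA or short labelling. It was low on the arrays of B5 (0.181) and empty vector (0.212), 0.384 on that of A20, and high on those of D6 (0.683) and hnRNP-H (0.866). Most markers of the labels' cell types went with the labels. B cell markers summed to 5871 in A20 and 631 to 921 in the AxJ lines, and plasma cell markers to 2638 in A20 and 15139 to 23823 in the AxJ lines. The plasma cell sum rests largely on Igha (59.0 in A20, 7075 to 14745 in the AxJ lines) and Jchain. In A20, 5 of 6 B cell markers tested rose and 5 of 8 plasma cell markers fell past the threshold, where 2.89% and 3% of all probe sets did. Cd79b, Xbp1, Sdc1 and Tnfrsf17 did not pass. Myeloid, T cell, stromal and erythroid marker lists held no gene past the threshold in either comparison. Their summed levels in A20 and, as a range, in the AxJ lines were 203 and 192 to 404 for myeloid, 94.1 and 87.5 to 167 for T cell, 331 and 458 to 648 for stromal, and 143 and 95.0 to 171 for erythroid markers. The highest in each list were Cd14 (85.1 to 251), Zap70 (18.7 to 83.8), Col1a2 (234 to 429) and Hba-a1 (58.7 to 110.5) over the 5 arrays, while Itgam stayed at 5.36 or less, Cd3g at 3.76 or less and Alas2 at 8.20 or less. Their part in the results was not tested. Hnrnpf was not among the symbols. Hnrnph1 had a single probe set, which read 1058 in the hnRNP-H line and 1447 in empty vector, so the overexpression in that label is not seen in this probe set, and whether its probes lie within the transgene is not known here.

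Against the AxJ controls, A20 had higher levels of 7 of the 54 proteasome probe sets, for 5 genes, and a lower level of 1. The genes that rose were the immune catalytic subunits Psmb8 and Psmb10, the ATPase Psmc3, the lid subunit Psmd13 and the activator Psme4, by 3.31 to 5.50-fold over their probe sets, with Psmd13 at the top, whose size depends on the control array used. The assembly factor Psmg4 fell. Among all 9108 probe sets tested, 2.89% rose and 3% fell (5.88% in all) at a limma adjusted p under 0.05, against 13.0% and 1.85% of the proteasome probe sets. Psmc3 counts 3 times there, and with 1 probe set per gene 5 of 44 (11.4%) rose. When the fit itself held 1 probe set per gene, 7 of 44 passed, against 7.07% of all. With the filter at the 60th percentile 9 of 49 passed, against 9.69% of all, and the part of the members' brightness was not tested. No alpha subunit and no constitutive beta subunit passed. The median difference over the 54 probe sets was 0.01, beside -0.04 over all probe sets tested, and 27 of 54 lay above 0, where 47.8% of all did. In such bulk RNA, fewer cells with a transcript and less of it per cell cannot be told apart. A20 is a single array, assumed in the fit to vary like the AxJ arrays. None of the 8 calls held without the intensity trend in limma, where the adjusted p of these probe sets ran from 0.0714 to 0.189.

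The immune subunits were all highest in A20. Psmb8, which replaces Psmb5 and has chymotrypsin-like activity, read 3217 in A20, 1129 with empty vector, 745 with hnRNP-H, 827 in subclone B5 and 851 in subclone D6. Its log2 difference between A20 and the controls was 1.80 (SE 0.33, limma adjusted p = 0.0188), a 3.49-fold rise. Among the AxJ lines empty vector was the high one, and the other 3 lay close together. Psmb10, the partner of Psmb7, read 1340.2 in A20, 249 with empty vector, 298 with hnRNP-H, 460.1 in subclone B5 and 373 in subclone D6. It rose by 2.27 (SE 0.33, limma adjusted p = 0.00635), or 4.83-fold, and the hnRNP-F subclones lay between the controls and A20. Psmb9, the partner of Psmb6, read 1089.6 in A20, 388 with empty vector, 463 with hnRNP-H, 427 in subclone B5 and 561 in subclone D6. Its difference of 1.35 (SE 0.33) just missed the threshold, with a limma adjusted p of 0.0520, and it passed under 6 of 15 alternatives, with an adjusted p from 0.0325 to 0.184. A20 stood above all 4 AxJ arrays for all 3 genes, as it did for 26.0% of all probe sets tested.

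**Figure D1:**
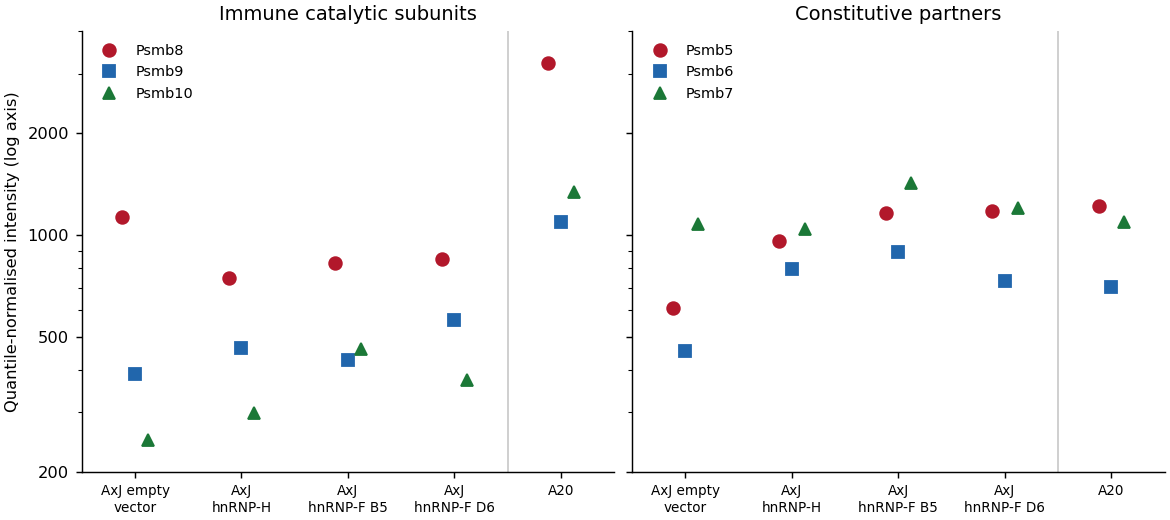
Quantile-normalised intensity (log axis) of the immune subunits Psmb8, Psmb9 and Psmb10 (left) and their constitutive partners Psmb5, Psmb6 and Psmb7 (right), 1 point per gene and array, spread sideways for legibility. In A20 the immune subunits read 1089.6 to 3217, above every AxJ array, while the partners read 702 to 1218, and heights of different genes cannot be compared because each has its own probes.

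None of the constitutive partners passed. Psmb5 read 1218 in A20, 609 with empty vector, 961 with hnRNP-H, 1159 in subclone B5 and 1179 in subclone D6. Its difference between A20 and the controls was 0.67 (SE 0.35, limma adjusted p = 0.347), or 0.34 without empty vector and 0.99 without hnRNP-H, and a dimmer second probe set differed by -0.47. Psmb6 read 702 in A20, 453 with empty vector, 794 with hnRNP-H, 894 in subclone B5 and 729.9 in subclone D6, a difference of 0.22 (SE 0.39, limma adjusted p = 0.825). The direction for Psmb6 turned on 1 control, with -0.18 without empty vector and 0.62 without hnRNP-H. Psmb7 read 1091 in A20, 1079 with empty vector, 1042 with hnRNP-H, 1428 in subclone B5 and 1205 in subclone D6, a difference of 0.04 (SE 0.29, limma adjusted p = 0.965), or -0.11 against all 4 AxJ arrays as 1 group. For Psmb6 and the brightest Psmb5 probe set the empty vector array was the lowest of the 5, and A20 lay within or near the range of the other AxJ lines. In the dimmer Psmb5 probe set empty vector (114) and B5 (123) were instead the high arrays, and A20 read 54.6.

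Because each array holds both partners, the log2 difference of an immune subunit and its partner within an array can be followed from array to array, while its zero point has no meaning. For Psmb10 minus Psmb7 it was 0.29 in A20, -2.09 with empty vector, -1.79 with hnRNP-H, -1.62 in subclone B5 and -1.67 in subclone D6. A20 thus lay 2.09 above the mean of the AxJ lines, whose SD was 0.21 (n = 4). For Psmb9 minus Psmb6 it was 0.63 in A20, -0.22 with empty vector, -0.77 with hnRNP-H, -1.05 in subclone B5 and -0.38 in subclone D6, which is 1.23 above the AxJ mean (SD 0.38, n = 4). For Psmb8 minus Psmb5 it was 1.40 in A20, 0.88 with empty vector, -0.36 with hnRNP-H, -0.48 in subclone B5 and -0.47 in subclone D6, which is 1.505 above the AxJ mean (SD 0.66, n = 4). In all 3 pairs A20 was the highest array. In the Psmb8 pair empty vector came within 0.51 of A20, and within 0.33 on the deposited scaling or under median scaling, with high Psmb8 and low Psmb5. With 1 array against 4, an exact test of such a value cannot go below p = 0.2, so none was made.

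**Figure D2:**
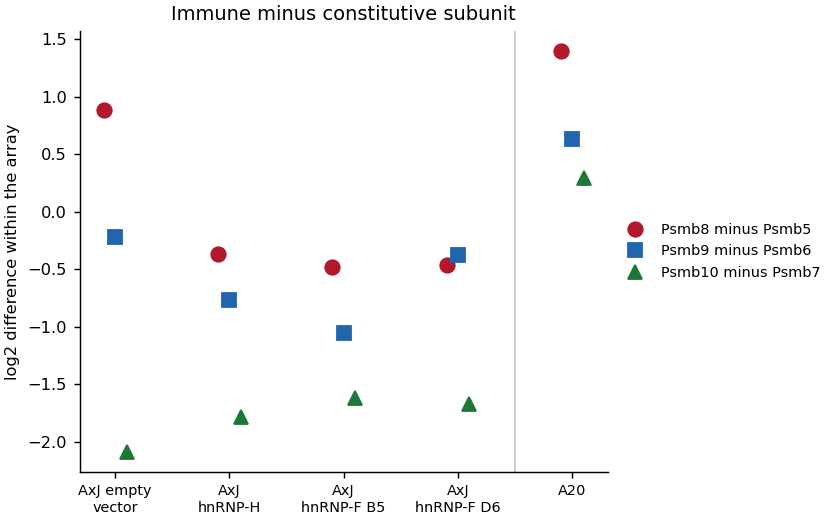
Log2 difference between each immune subunit and its constitutive partner within an array (vertical axis), for the 5 arrays (horizontal axis), 1 point per pair and array. A20 is highest for all 3 pairs, by 1.92 over the nearest AxJ array for Psmb10 minus Psmb7, 0.85 for Psmb9 minus Psmb6 and 0.51 for Psmb8 minus Psmb5 (0.33 on the deposited scaling). Each gene is shown by its brightest probe set, and the dimmer Psmb5 probe set, which ranks the arrays otherwise, is not used.

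Because the 3 immune subunits were highest in A20, of which Psmb8 and Psmb10 passed and Psmb9 did not, their promoter windows are shown with those of the partners Psmb5 and Psmb6. The table used has no entry for Psmb7. Each window runs from 250 bases before to 50 bases after the start in RefSeq's table, on the gene's own strand, in GRCm38.p6. The positions are chr17:34197945-34198244, plus strand, for Psmb8, and chr17:34187281-34187580, minus strand, for Psmb9. They are chr8:105938343-105938642, minus strand, for Psmb10, chr14:54617946-54618245, minus strand, for Psmb5, and chr11:70525107-70525406, plus strand, for Psmb6. Capitals mark matches on either strand to 5 motifs, whose matches do not overlap in these windows. The interferon-stimulated response element was searched as GAAA, any 2 bases and GAAA again. The STAT element was searched as TTCNNNGAA and the antioxidant response element as TGACNNNGC. The remaining motifs were the CCAAT box, by those letters, and the GC box, as GGGCGG.
Psmb8: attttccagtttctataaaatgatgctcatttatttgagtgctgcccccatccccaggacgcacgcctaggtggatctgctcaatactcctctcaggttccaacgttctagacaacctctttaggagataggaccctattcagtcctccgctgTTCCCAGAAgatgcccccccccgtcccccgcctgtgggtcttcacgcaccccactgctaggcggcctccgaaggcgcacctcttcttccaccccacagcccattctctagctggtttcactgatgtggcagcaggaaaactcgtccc
Psmb9: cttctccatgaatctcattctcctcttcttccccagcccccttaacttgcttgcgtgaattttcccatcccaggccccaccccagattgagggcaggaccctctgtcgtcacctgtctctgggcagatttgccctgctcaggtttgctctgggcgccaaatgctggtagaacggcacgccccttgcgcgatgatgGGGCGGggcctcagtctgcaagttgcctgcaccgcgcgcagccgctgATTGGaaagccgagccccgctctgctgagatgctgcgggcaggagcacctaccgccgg
Psmb10: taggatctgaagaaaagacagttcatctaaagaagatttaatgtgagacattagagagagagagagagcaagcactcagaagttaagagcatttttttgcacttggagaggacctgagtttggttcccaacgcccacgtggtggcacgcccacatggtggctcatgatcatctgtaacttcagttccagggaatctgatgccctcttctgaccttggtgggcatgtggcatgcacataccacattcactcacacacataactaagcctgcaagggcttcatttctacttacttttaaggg
Psmb5: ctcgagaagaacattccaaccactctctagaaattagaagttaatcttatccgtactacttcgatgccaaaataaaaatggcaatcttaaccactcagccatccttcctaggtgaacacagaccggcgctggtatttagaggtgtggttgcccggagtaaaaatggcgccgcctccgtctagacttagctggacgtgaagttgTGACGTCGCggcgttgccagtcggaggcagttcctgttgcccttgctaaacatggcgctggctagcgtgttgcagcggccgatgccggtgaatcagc
Psmb6: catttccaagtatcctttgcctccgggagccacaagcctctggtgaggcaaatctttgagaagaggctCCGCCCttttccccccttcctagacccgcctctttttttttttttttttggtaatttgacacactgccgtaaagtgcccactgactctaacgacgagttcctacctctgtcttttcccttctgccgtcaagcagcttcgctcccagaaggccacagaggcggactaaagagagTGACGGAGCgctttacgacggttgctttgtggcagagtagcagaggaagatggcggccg
The Psmb8 window holds TTCCCAGAA, a match to the STAT element that begins 97 bases before the start, and 8.30% of all 32851 windows hold that motif. The Psmb9 window holds a GC box 55 bases and a CCAAT box, on the other strand, 8 bases before the start. It shares 275 bases with the window of Tap1, which encodes a subunit of the peptide transporter and is read in the opposite direction. The Psmb10 window holds none of the 5 motifs. The Psmb5 and Psmb6 windows each hold an antioxidant response element, the type of site that the transcription factor Nfe2l1 is known to use, 47 and 9 bases before the start, and the Psmb6 window also holds a GC box on the other strand. The antioxidant motif was in 12.4% of all windows and in 6 of 39 member windows (15.4%). Of the 44 genes 37 had a window. The interferon-stimulated motif was in 5 of the 39 windows (12.8%), those of Psmb3, Psmd4, Psmd9, Psme1 and Psmg4, against 3.44% of all windows, and GC boxes were in 22 (56.4%), against 35.7%. These matches describe letters in the windows and say nothing of binding.

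On chromosome 17 the RefSeq gene order is Psmb9, Tap1, Psmb8, Tap2, within the class II region of the MHC. Tap1 read 154 to 189 in the AxJ lines and 323 in A20 (log2 difference 0.78, SE 0.34, limma adjusted p = 0.259). Tap2 read 91.8 to 137 in the AxJ lines and 177 in A20 (0.74, SE 0.38, limma adjusted p = 0.338). Neither passed, although A20 was the highest array for each. A second probe set of Tap1 differed by -1.16.

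Outside the catalytic core, the ATPase Psmc3 was measured by 3 probe sets, which all rose in A20. Its brightest probe set read 1289 in A20, 334 with empty vector, 375 with hnRNP-H, 465 in subclone B5 and 387 in subclone D6. The difference was 1.85 (SE 0.32, limma adjusted p = 0.0145), or 3.60-fold. The other probe sets differed by 1.73 (SE 0.33, limma adjusted p = 0.0210) and 2.12 (SE 0.41, limma adjusted p = 0.0214). The first of these lost its call without B5 or without D6, and the second against empty vector alone. By the maker's naming, probe sets with the suffix f can share probes with related sequences, and 2 of these 3 carry it. The remaining one carries the suffix i. Among other members, the only probe sets of Psmb7, Psma3 and Psmd12, the brightest of Psmb4 and a dim one of Psmc5 carry the suffix f too. The brightest Psmb5 probe set has the suffix s, and the only one of Psmd9 and the brightest of Psmg3 have the suffix r. What the suffixes mean for these values was not tested. The 3 Psmc3 probe sets measure 1 gene on the same arrays and are not independent. The other 5 ATPases did not pass. Psmc1, Psmc2, Psmc5 and Psmc6 had differences from -0.51 to -0.10 in their brightest probe sets. Psmc4 was dim on every array, with 9.82 in A20, 24.2 with empty vector, 15.3 with hnRNP-H, 6.56 in B5 and 5.36 in D6 (A20 minus controls -0.66, SE 0.78).

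Psme4, an activator that caps the core without ATPases and is known for acetylated histones as substrates, read 879 in A20, 194 with empty vector, 223 with hnRNP-H, 188 in subclone B5 and 187 in subclone D6. It rose by 2.05 (SE 0.33, limma adjusted p = 0.0110), or 4.13-fold. The 4 AxJ arrays were nearly alike, with an SD of 0.12 on the log2 scale. Psmd13, a lid subunit, read 1027 in A20, 104 with empty vector, 314 with hnRNP-H, 312 in subclone B5 and 304 in subclone D6. It rose by 2.46 (SE 0.56, limma adjusted p = 0.0390), or 5.50-fold, and empty vector stood far below the other AxJ lines. The difference was 1.69 without empty vector and 3.23 without hnRNP-H. Against all 4 AxJ arrays as 1 group the Psmd13 call was lost (difference 2.09, limma adjusted p = 0.0593), and also without D6 (adjusted p = 0.0632) and without the filter on low values (adjusted p = 0.0976). Psmg4 read 379 in A20, 944 with empty vector, 850.4 with hnRNP-H, 941 in subclone B5 and 860.3 in subclone D6. It fell by 1.23 on the log2 scale (SE 0.30), with a limma adjusted p of 0.0497 that rose above the threshold under 9 of 15 alternatives, and to as much as 0.189.

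**Figure D3:**
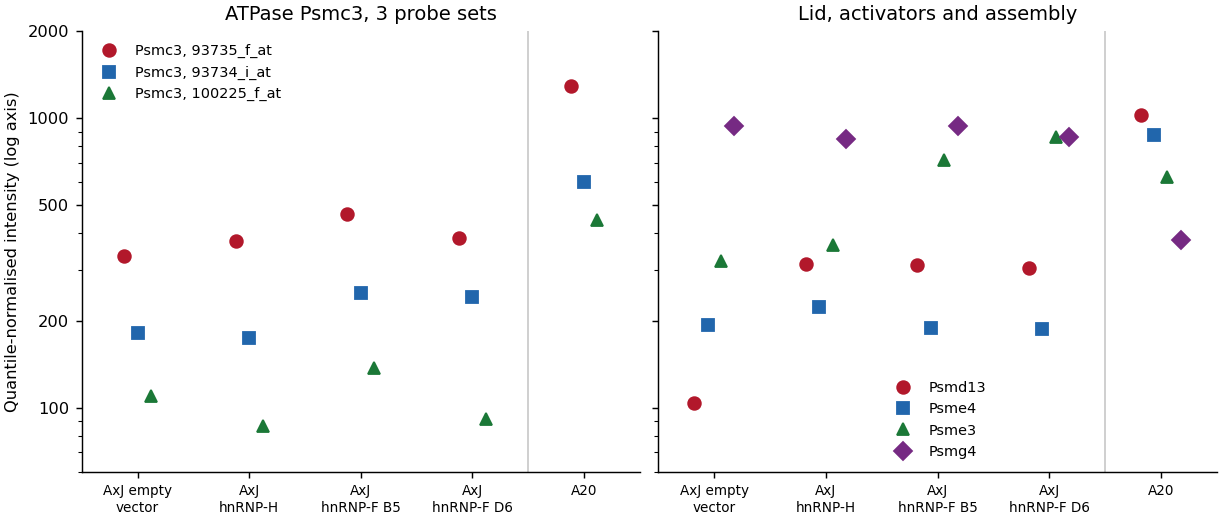
Quantile-normalised intensity (log axis) by array for the 3 Psmc3 probe sets (left) and for Psmd13, Psme4, Psme3 and Psmg4 (right), 1 point per probe set and array, spread sideways for legibility. A20 is the highest array for Psmc3, Psmd13 and Psme4 and the lowest for Psmg4, while Psme3 is highest in D6 (864) and B5 (715).

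Among the other regulatory subunits none passed in the main setting. Psmd8, a lid subunit, read 592 in A20, 210.1 with empty vector, 284 with hnRNP-H, 476 in subclone B5 and 425 in subclone D6 (A20 minus controls 1.25, SE 0.34, limma adjusted p = 0.0730). It passed under 3 of 15 alternatives, with median scaling, against empty vector alone and without hnRNP-H, and its adjusted p ran from 0.0444 to 0.345. Psmd10, known as gankyrin and a chaperone of the ATPase ring, read 29.0 in A20, 97.4 with empty vector, 87.9 with hnRNP-H, 81.7 in B5 and 81.0 in D6 (-1.48, SE 0.41, limma adjusted p = 0.0795). It passed under 1 of 15 alternatives, the deposited scaling (adjusted p = 0.0407), and otherwise had an adjusted p of up to 0.173. Psmd1, a scaffold of the base, read 530.0 to 773 in the AxJ lines and 1195 in A20 (0.89, SE 0.35, limma adjusted p = 0.208). The remaining Psmd genes, Psmd2 to Psmd7, Psmd9, Psmd11, Psmd12 and Psmd14, had differences from -0.95 to 0.49 in their brightest probe sets. The lowest of these, Psmd2, was under 29 on every array.

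No alpha gene passed in A20, and only Psma6 of the 7 lay above 0, where 47.8% of all probe sets did. Psma1 read 306 in A20, 1024 with empty vector, 556 with hnRNP-H, 486 in subclone B5 and 505 in subclone D6 (A20 minus controls -1.29, SE 0.40, limma adjusted p = 0.109). It passed without hnRNP-H (adjusted p = 0.0264) and against empty vector alone, which was the high array. Psma6 had the highest difference, 0.18 (SE 0.28), with 2237 in A20, 2022 with empty vector, 1916 with hnRNP-H, 2060.1 in B5 and 2046 in D6, and it was the steadiest member of all over the AxJ lines (SD 0.05 on the log2 scale). On the deposited scaling A20, with 2020.5, lay within the AxJ range for Psma6. Psma4 read 1079.9 in A20, 1649 with empty vector, 1595 with hnRNP-H, 2209.6 in B5 and 1527 in D6, so A20 was the lowest array (-0.58, SE 0.32, limma adjusted p = 0.377). The remaining alpha genes, Psma2, Psma3, Psma5 and Psma7, lay between -0.28 and -0.03. Of the constitutive beta genes, Psmb2 was the lowest, with 1268 in A20, 1314 with empty vector, 1796 with hnRNP-H, 1443 in B5 and 1609.9 in D6 (-0.28, SE 0.31). Its difference was -0.50 without empty vector and -0.05 without hnRNP-H. Psmb1, Psmb3 and Psmb4 lay between -0.24 and 0.15 in their brightest probe sets. A second Psmb1 probe set read 622 in A20 and 972 to 1244 in the AxJ lines (-0.81, SE 0.30, limma adjusted p = 0.186), so the probe sets of this gene differed.

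**Figure D4:**
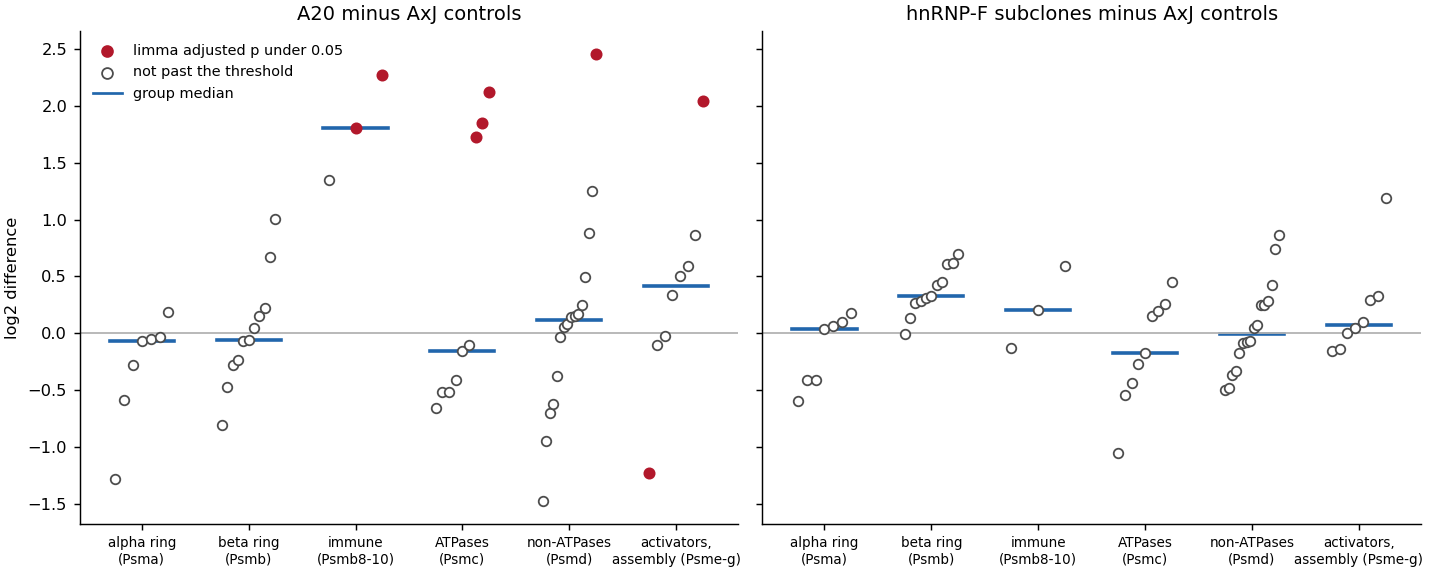
Log2 differences of the 54 proteasome probe sets tested, grouped by role, for A20 minus AxJ controls (left) and hnRNP-F subclones minus AxJ controls (right). Each circle is 1 probe set, filled where the limma adjusted p is under 0.05, and the bar is the group median, which reaches 1.80 for the immune subunits in A20 and lies between -0.17 and 0.42 in every other column.

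In the hnRNP-F subclones no proteasome probe set passed, where 0.011% of all probe sets rose and 0% fell at a limma adjusted p under 0.05. At an unadjusted p under 0.05 there were 2 of 54 (3.70%), Psme3 and Psmd8, against 5.78% of all probe sets tested. Psme3 encodes an activator of the core that is known to act in the nucleus without ubiquitin. It read 625 in A20, 320.4 with empty vector, 364 with hnRNP-H, 715 in subclone B5 and 864 in subclone D6, so each subclone was well above each control. Its difference was 1.19 (SE 0.26, unadjusted p = 0.00148, limma adjusted p = 0.788). B5 exceeded empty vector by 1.14 and D6 exceeded hnRNP-H by 1.23 on the log2 scale. These pairs have like Gapdh ratios, but the labels do not pair them, and a tie of Psme3 to that ratio was not tested. A20, set against the same controls, differed by 0.86 (SE 0.32, limma adjusted p = 0.176). For Psmd8 the difference was 0.86 (SE 0.28, unadjusted p = 0.0135, limma adjusted p = 0.788), with each subclone above each control.

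By role, the constitutive beta ring had the highest median in the subclones, with no probe set past the threshold. Of its 11 probe sets, which measure 7 genes, 10 lay above 0, where 50.6% of all probe sets tested did, and the median was 0.33, beside 0.01 over all. Psmb5 was the highest gene, with 0.61 (SE 0.28), but 0.28 without empty vector and 0.93 without hnRNP-H. Psmb6, at 0.43, likewise became 0.03 and 0.82. Among the brightest probe sets Psmb3 came next to Psmb5 with 0.45 (SE 0.26), from 1746 and 2226 in the controls to 3138 in B5 and 2304 in D6. For 6 of the 11, both subclones lay above both controls, and for none below. The shares over all probe sets were 18.2% above and 19.3% below. The ATPases had a median of -0.17, with Psmc6 at -0.54 (SE 0.25), from 2404 and 1855 in the controls to 1575 and 1331. Psmc4 lay lowest at -1.05 (SE 0.63), but its levels were 24.2 or less. Among the alpha genes Psma1 was lowest (-0.60, SE 0.32) and Psma4 highest (0.18, SE 0.26), and Psma1, Psma2 and Psma3 were lower in both subclones than in both controls. Without empty vector Psma1 was at -0.16, without hnRNP-H at -1.04, and Psma4 turned to -0.09 without B5. In the Psmd group the lowest was Psmd6, which read 988 in A20, 1012 with empty vector, 861 with hnRNP-H, 619 in B5 and 704 in D6 (-0.50, SE 0.25). The immune subunits differed by 0.59 for Psmb10 (SE 0.27), 0.21 for Psmb9 (SE 0.27) and -0.13 for Psmb8 (SE 0.27). The Psmb8 difference was 0.17 without empty vector, and that of Psmb9 was 0.01 without D6. Psme1, part of a cap that interferon is known to induce, differed by 0.29 (SE 0.23). Psme1 read 1177 and 1200.3 in the controls, 1485 in B5, 1434 in D6 and 1796 in A20 (A20 minus controls 0.59, SE 0.28, limma adjusted p = 0.297). Psme4 and Psmg4 differed by -0.14 and 0.01. All adjusted p-values of the 54 probe sets in this comparison were 0.788 or more. With 2 arrays against 2, an exact test of a single value cannot go below p = 0.333.

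In the beta ring B5 was the highest of the 4 AxJ arrays for 9 of the 11 beta probe sets, and 27.0% of all probe sets tested had B5 highest. Empty vector was the lowest AxJ array for 7 of the 11 and the highest for none, against 31.9% and 33.4% of all probe sets. Over all 54 members the median difference was 0.14 for B5 minus empty vector and 0.18 for B5 minus hnRNP-H, but -0.04 for D6 minus empty vector and 0.06 for D6 minus hnRNP-H. B5 and empty vector share a low Gapdh ratio, and D6 and hnRNP-H a high one. With that ratio as a covariate the median over the 54 for the subclones minus the controls was 0.08, beside 0.10 without it. Both the subclones and the controls hold a low and a high array, so the covariate could move this difference only little. The part of that ratio in these differences was not tested. In the Psmd group empty vector was the highest AxJ array for 9 of 16 probe sets, among them Psmd14, a deubiquitinase of the lid, with 1529.7 against 853 to 909 in the other AxJ lines.

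With 1 array a side, hnRNP-H against empty vector gave 5 of 54 probe sets up by 1.5-fold or more and 9 down by as much, against 19.5% and 19.3% of all probe sets tested. The higher were Psmb5, Psmb6, Psmd3, Psmd13 and a dim Psmb1 probe set. The largest of these was Psmd13, by 1.54 on the log2 scale. The lower included Psma1 (-0.87), Psmd14 (-0.84), Psmb8 (-0.59) and Psmg1, a core assembly chaperone (-1.16, from 642 to 283). For Psmb5 the second probe set went the other way (-1.01). D6 against B5 gave 1 probe set at least 1.5-fold higher, a dim one of Psmd11, and 4 lower, against 14.4% and 13.8% of all. Among the lower, Psma7 was the bright one, with 2198 in B5 and 1123 in D6 (-0.96). Over the 4 AxJ lines the median SD of a member was 0.27 on the log2 scale, beside 0.38 over all probe sets tested. The median level of the members, 654, was also higher than that of all, 85.6, and the part of brightness in this difference was not tested. No test was made in these contrasts.

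Genes around the proteasome were read from lists, none of whose genes passed in the hnRNP-F subclones. For the A20 counts that follow, the shares of all probe sets tested were 2.89% that rose, 3% that fell and 47.8% above 0. Of 9 other assembly and accessory genes measured, 1 fell in A20 and none rose. It was Zfand5, a proteasome-binding zinc finger protein, which read 347 to 745 in the AxJ lines and 152 in A20 (-1.88, SE 0.38, limma adjusted p = 0.0259). Pomp, the maturation factor of the core, read 1714 to 2425 in the AxJ lines and 1305 in A20 (-0.85, SE 0.30, limma adjusted p = 0.158), and the median of the list was -0.32. Of 13 genes of proteasome gene regulation, 1 rose, Irf8, an interferon regulatory factor of the B cell and myeloid lineages. It read 15.1 to 24.8 in the AxJ lines and 219.9 in A20 (2.85, SE 0.51, limma adjusted p = 0.0170). Irf1, known to drive the immune subunits after interferon, read 49.7 to 78.0 in the AxJ lines and 68.1 in A20, and Nfe2l1 read 251 to 486 and 436. Of 16 genes of ubiquitin supply and delivery, 1 rose, Ube2d2a, a ubiquitin-conjugating enzyme, which read 58.2 to 74.3 in the AxJ lines and 286 in A20 (2.08, SE 0.40, limma adjusted p = 0.0210).

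Of 15 genes of ER-associated degradation, which sends misfolded secretory proteins to the proteasome, 2 fell in A20 and none rose, and 1 of the 15 lay above 0, with a median of -1.12 beside -0.04 over all. Sel1l, an adaptor of the ER ubiquitin ligase, fell by 3.38 (SE 0.39, limma adjusted p = 0.00216), with 409.8 to 636 in the AxJ lines and 43.0 in A20, and its second probe set fell as well. Selenok fell by 1.69 (SE 0.34, limma adjusted p = 0.0254), though its second probe set differed by -0.60. Of 12 genes of class I peptide supply tested, Tapbp, which encodes tapasin, fell by 1.51 (SE 0.32, limma adjusted p = 0.0293), with 533 to 634 in the AxJ lines and 203 in A20, while its other probe sets differed by -0.99 and -0.27. None of the 12 rose, and the median was -0.19. The class I light chain B2m read 2886 to 4160.3 in the AxJ lines and 1988 in A20 (-1.002, SE 0.27, limma adjusted p = 0.0747).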

How the data were processed

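Cultures in log phase gave polyadenylated RNA for 1 array each, per the labels' protocols. The deposited values are 1 linear intensity per probe set and array, which the authors had scaled to a trimmed mean of about 150.1 (2% trimmed at each end), as the values show. Software and background correction: not given in the sources used here. Gene symbols rest on the platform annotation (2016) and current RefSeq names, and a probe set with several symbols got none. Quantile normalisation was used because the A20 median fell by 11.6% below the mean of the array medians. The filter on low values (highest value above 21.8, the 40th percentile) and the removal of 66 control probe sets left 9108. A single limma model (version 3.58.1, R 4.3.3, lmFit, then eBayes with trend) held 3 coefficients for 5 arrays, so 2 residual degrees of freedom, with a prior of 6.51. The two-sided p-values were adjusted over the 9108 by Benjamini and Hochberg, at 0.05. The code was tested on simulated data. Separate cultures within a group are not described, so the p-values speak only of differences among these arrays, which may be technical. The spread they rest on is that between empty vector and hnRNP-H and between B5 and D6. It therefore includes any effect of hnRNP-H and any difference between clones. The small number of arrays limits the precision.

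Named with values on each array were the catalytic subunits and their immune partners, Psme1 and Psme3, members past the threshold, and the highest and lowest gene of each letter group in each comparison. From the pathway lists, genes past the threshold were named. The probe set with the highest mean log2 value represents its gene. Names outside this rule were chosen after their values were seen. The members and lists were chosen with earlier results of these data known. Alternatives covered scaling, pseudocount, filter, intensity trend, the Gapdh ratio as a covariate, 1 probe set per gene, the reference arm and each AxJ array left out. Promoter windows came from RefSeq (GRCm38.p6).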

Additional observations from a re-analysis of the deposited data

How the results depend on the processing

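No paired analysis was possible because the labels give no replicate numbers that groups share. In the A20 comparison 8 proteasome probe sets passed. The count was 0 without the intensity trend, where 146 of all probe sets passed, and 5 to 10 when an AxJ array was left out (5 without D6, 10 without hnRNP-H), and it stayed within 1.5 times under the other 10 alternatives. In the hnRNP-F comparison it was 0 under all 14 alternatives run. The median proteasome difference for A20, 0.00733, was 0.0468 with 1 probe set per gene, 0.0487 against empty vector alone, 0.0522 with the filter at the 60th percentile and 0.205 under median scaling, where the median of all probe sets was 0.0630. Its sign turned on the deposited scaling (-0.0186) and with all 4 AxJ arrays as 1 group (-0.00203). It lay between 0.00733 and 0.0708 when an AxJ array was left out. The median for hnRNP-H minus empty vector, -0.0355, was 0.103 under median scaling, an alternative chosen after seeing the data, with a change of sign, while all probe sets tested had 0.0635. Psmb8, Psmb10, Psme4 and the brightest Psmc3 probe set lost their calls only without the intensity trend. Of the other Psmc3 probe sets, one lost its call also against empty vector alone and one without B5 or without D6. Dim probe sets and 1 A20 array limit what can be read.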

Other observations

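Probe sets listed for Psme2, the partner of Psme1 in the interferon-induced cap, are also listed for its copy Psme2b and were not counted. The brighter one read 759.7 in A20, 594 with empty vector, 459 with hnRNP-H, 670.1 in subclone B5 and 395 in subclone D6. It differed by 0.54 between A20 and the controls (SE 0.39, limma adjusted p = 0.531) and by -0.02 in the hnRNP-F subclones. The AxJ arrays of low Gapdh ratio, empty vector and B5, read higher than those of high ratio, and a tie to that ratio was not tested.

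The genes that share only their first letters with proteasome subunits are Psmc3ip, which encodes a partner of recombinases, and Psme3ip1, which encodes a protein that binds Psme3. Psmc3ip read 47.1 in A20, 121 with empty vector, 67.8 with hnRNP-H, 22.5 in subclone B5 and 55.8 in subclone D6, a difference of -1.19 in the hnRNP-F subclones (SE 0.48, limma adjusted p = 0.788). Psme3ip1 read 394 to 471 in the AxJ lines and 269 in A20 (-0.75, SE 0.32, limma adjusted p = 0.247).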
